A study of Mus musculus with 18 samples.

Results

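The 42 genes described here carry cells through the division cycle. They were taken from a list of G1/S, replication and G2/M genes and matched by mouse symbol to the Ensembl identifiers of the expression tables, which hold 55487 genes; all 42 were found, and all 42 passed the filter on low values. By role, 3 act at the G1/S transition (the E cyclins Ccne1 and Ccne2, and the transcription factor E2f1). Another 10 license origins or form the replicative helicase (Cdc6, Cdt1, Mcm2 to Mcm7, Cdc45 and Gins2), and 6 serve DNA synthesis, its nucleotide supply or its checkpoint (Pcna, Rrm1, Rrm2, Tyms, Tk1 and Chek1). The G2/M group holds 22 genes: Mki67, Top2a, Ccna2, Ccnb1, Ccnb2, Cdk1, Cdc20, Aurka, Aurkb, Plk1, Bub1, Bub1b, Birc5, Cenpa, Cenpe, Cenpf, Kif11, Kif20a, Kif23, Tpx2, Ube2c and Nusap1. Stmn1, which destabilises microtubules, was put in no phase. Licensing and synthesis genes are called replication genes below, 16 in all.

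Poly(A) RNA was sequenced from regulatory T (Treg) cells, the CD4+Foxp3+ subset that restrains immune responses. Mice were wild-type and received no treatment, and their Treg cells were sorted fresh from peripheral blood, spleen, lymph node, liver, lung and bone marrow, with 3 libraries per organ and 18 in all, and the series set circulating Treg cells against those of the other organs. Sorting gates, age, sex and the number of animals behind a library are not given in the sources used here, so the spread between the 3 libraries of an organ may be in part technical. Levels are in TPM, the share of a library's RNA that belongs to a gene after correction for length; because TPM is a share, a change in any abundant RNA moves all other genes.

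Progress through the cycle depends on waves of transcription. In G1, cyclin-dependent kinases inactivate the Rb family and release E2F factors, which switch on genes for origin licensing and DNA synthesis. In G2, the MuvB complex joins with B-Myb and FoxM1 to switch on genes for mitosis, many of which carry a CHR element and CCAAT boxes in their promoters. Most T cells rest outside the cycle, and Treg cells are known to include a dividing, activated fraction. In RNA from a whole sorted population, fewer dividing cells and less RNA per dividing cell cannot be told apart.

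The promoter sequences show what the roles share at the start of their genes. RefSeq promoters of the GRCm38.p6 build were matched by symbol for 34 of the 42 genes, with 35 promoters in all, and searched over the 250 bases before the start on both strands. The words searched were TTTCCCGC, TTTCGCGC, TTTGCCGC and TTTGGCGC for E2F, TTTGAA and TTCGAA for the CHR element, and CCAAT for the CCAAT box; neighbouring E2F words can overlap, as in Mcm6. The CHR words were found in 8 of 18 G2/M promoters (44.4%), against 17.1% of all 32851 promoters, and all 8 also held CCAAT, a pairing found in 6.0% of all promoters. The CHR words also lay in 3 of 9 licensing promoters (33.3%), all 3 of which held the CCAAT box as well. This box was found in 16 of 18 G2/M promoters (88.9%), in 7 of 9 licensing promoters (77.8%) and in 33.8% of all promoters. The E2F words were found in 4 of 9 licensing promoters (44.4%) and 1 of 18 G2/M promoters (5.6%), against 1.9% of all promoters; the 6 synthesis promoters held neither E2F nor CHR words. These are matches of letters, given as a description, and say nothing of binding.

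The 140 bases before the start are printed below, 5′ to 3′ on the strand of the gene, with matched words in capitals. Cdk1, Cdc20, Top2a and Mki67 are shown as G2/M genes with CHR words, and Mcm6 as a helicase gene with E2F words. Plk1 and Kif23 are shown because their levels in lung departed from that of Mki67 in opposite directions, as described below. Cdc20 was also low in lung (2.46, 4.52 and 2.62 TPM), with no difference from blood called. In the windows of Plk1 and Kif23, CCAAT was the only word found, as it was for Aurka, Bub1, Ccnb1, Cenpa, Cenpe and Cenpf.
Cdk1 (chr10:69352913-69353052, minus strand): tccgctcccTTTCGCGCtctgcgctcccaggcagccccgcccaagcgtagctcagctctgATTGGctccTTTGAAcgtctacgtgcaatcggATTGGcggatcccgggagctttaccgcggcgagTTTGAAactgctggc
Cdc20 (chr4:118437344-118437483, minus strand): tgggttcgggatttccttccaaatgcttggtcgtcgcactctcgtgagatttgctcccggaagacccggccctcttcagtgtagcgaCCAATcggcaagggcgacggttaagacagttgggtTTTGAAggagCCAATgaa
Top2a (chr11:99024190-99024329, minus strand): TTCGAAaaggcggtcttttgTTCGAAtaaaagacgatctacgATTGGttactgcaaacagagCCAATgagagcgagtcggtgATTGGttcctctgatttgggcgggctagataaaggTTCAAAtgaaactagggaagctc
Mki67 (chr7:135716380-135716519, minus strand): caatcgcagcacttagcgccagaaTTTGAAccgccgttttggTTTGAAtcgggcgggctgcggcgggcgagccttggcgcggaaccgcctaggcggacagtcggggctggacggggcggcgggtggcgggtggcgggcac
Mcm6 (chr1:128359706-128359845, minus strand): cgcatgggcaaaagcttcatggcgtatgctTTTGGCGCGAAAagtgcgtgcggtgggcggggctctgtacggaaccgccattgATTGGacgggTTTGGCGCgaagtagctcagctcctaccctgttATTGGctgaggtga
Plk1 (chr7:122159295-122159434, plus strand): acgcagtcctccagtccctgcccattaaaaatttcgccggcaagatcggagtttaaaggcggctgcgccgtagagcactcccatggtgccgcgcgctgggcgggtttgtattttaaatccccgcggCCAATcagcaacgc
Kif23 (chr9:61946800-61946939, minus strand): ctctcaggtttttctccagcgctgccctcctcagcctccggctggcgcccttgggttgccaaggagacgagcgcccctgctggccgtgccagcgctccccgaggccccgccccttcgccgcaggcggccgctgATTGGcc
In Cdk1, CHR words began 71 and 15 bases before the start. In Cdc20, the CHR word began 18 bases before the start, and in Mki67 the CHR words began 116 and 98 bases before it. The 3 E2F words of Mcm6 began 110, 106 and 47 bases before its start.

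Facts of the whole series that bear on these genes are few. Between 14314 and 14408 genes were above 0 TPM in the liver libraries and between 15219 and 15606 in lung, against 16685 to 16756 in spleen and 18985 to 19797 in lymph node, blood and bone marrow. Foxp3, which checks the labelled cell type, averaged 88.6 TPM in blood and between 139.7 and 238.5 TPM in the other organs. The summed level of 20 general T cell genes was 11997 TPM in lymph node, 11410 in spleen, 9716 in liver, 8367 in lung, 7810 in bone marrow and 5133 in blood. RNA of other cells was present. Myeloid genes summed to 27354 TPM in blood and 47386 TPM in bone marrow, against 63.9 to 1782 TPM elsewhere, and platelet genes summed to 2163 TPM in blood against 3.20 to 76.2 TPM elsewhere. Erythroid genes summed to 11469 TPM in liver and 6521 TPM in bone marrow, against 74.9 to 2929 TPM elsewhere. Lung epithelium genes summed to 252.8 TPM in lung, against 1.73 to 11.9 TPM elsewhere. The part of these cells in the results below was not tested.

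Cell cycle genes were lowest in blood and highest in bone marrow. Bone marrow had the highest mean of the 6 organs for 36 of the 42 genes. Blood had the lowest mean for 36 genes, lung for 4 (Ccne1, Aurka, Aurkb and Plk1) and spleen for 2 (E2f1 and Kif23). The highest mean was in lung for Cdt1, Mcm4, Pcna, Cenpa and Kif23 and in liver for Ccne2. Organs were compared gene by gene with limma on log2(TPM + 1), called at a Benjamini-Hochberg adjusted p under 0.05 over all 16694 genes tested. All 42 genes differed among the 6 organs by the limma F test, where 68% of all genes did.

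**Figure D1:**
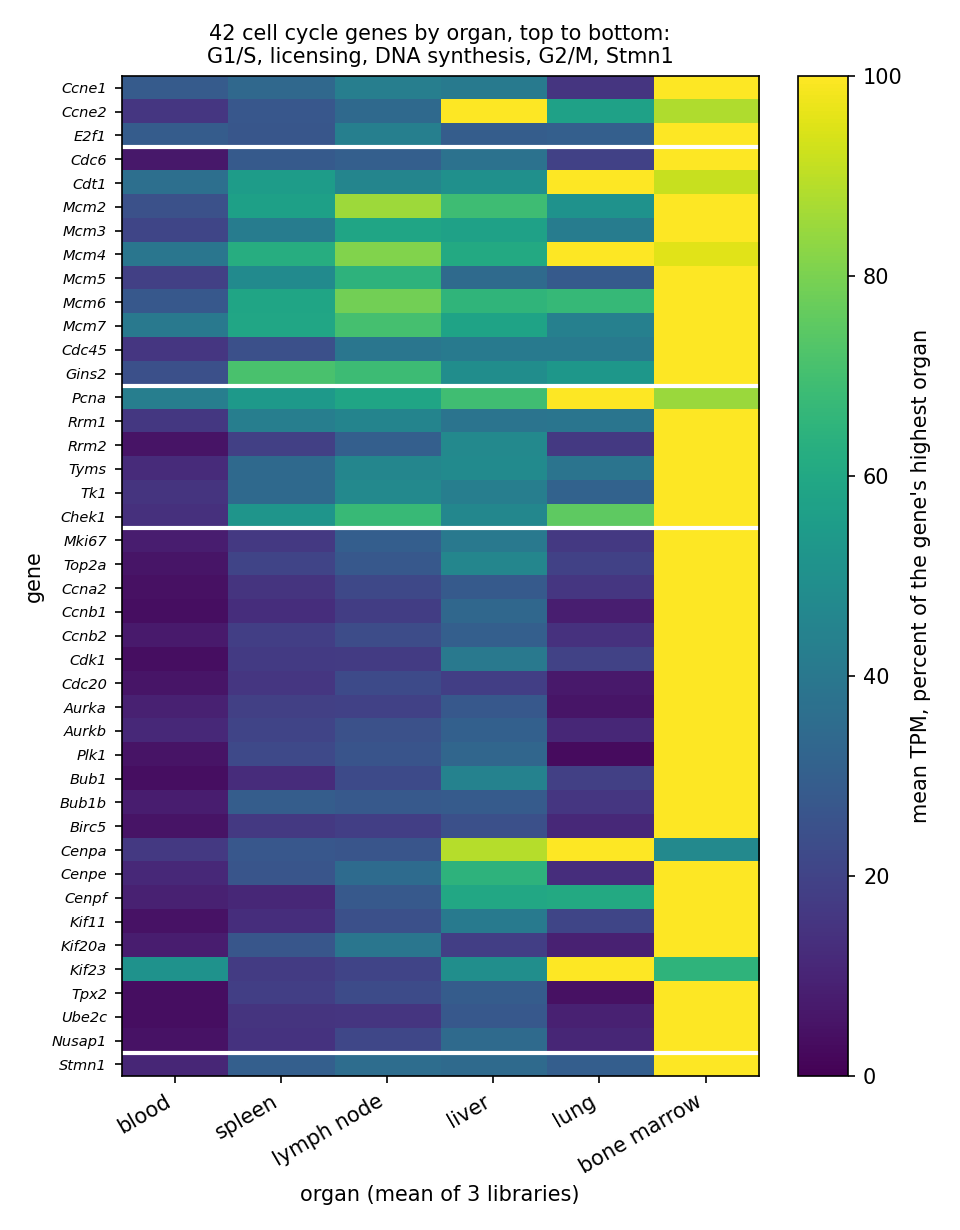
Mean level of each of the 42 genes in each organ (3 libraries), as a percent of the gene's highest organ; rows are genes in order of role, columns are organs. The bone marrow column is at 100% for 36 genes, and Cenpa, Kif23, Pcna, Cdt1 and Mcm4 peak in lung.

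The bone marrow and blood libraries also stood apart one by one. For 31 of the 42 genes all 3 bone marrow libraries were above the other 15, where 5.28% of all genes tested were so placed. The 3 lung libraries were above the other 15 for 1 gene, Kif23 (6.24% of all genes), and below them for 1 gene, Aurka (6.63%). For 27 genes all 3 blood libraries were below the other 15, where 4.79% of all genes were. Over the 42 genes, replicates of bone marrow were the tightest. The median coefficient of variation of a gene over 3 libraries was 5.34% in bone marrow, 7.68% in lymph node, 15.5% in blood, 19.97% in spleen, 24.9% in liver and 29.4% in lung. For the replication genes alone it was lower in lymph node (4.11%) than in bone marrow (6.13%).

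At the G1/S transition, Ccne1, a cyclin that activates the kinase Cdk2, was listed at 7.52, 4.68 and 7.22 TPM in blood, 6.67, 9.40 and 6.74 in spleen, 9.64, 8.58 and 10.7 in lymph node, 9.12, 11.7 and 7.08 in liver, 6.15, 2.91 and 1.37 in lung and 23.5, 21.9 and 22.5 in bone marrow. The bone marrow libraries stood above all others, and lung overlapped blood in 1 library. Ccne1 rose by 1.68 ± 0.31 (SE) on the log2 scale from blood to bone marrow (limma, adjusted p = 0.000546) and was lower in lung by a log2 fold change of -0.86 (adjusted p = 0.0340). The lung difference missed the threshold when any 1 of 4 libraries was left out, lung 2 (adjusted p = 0.0728), lung 3 (0.177), blood 1 (0.111) or blood 3 (0.102).

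Its relative Ccne2 was at 1.44, 2.11 and 2.32 TPM in blood, 2.86, 3.81 and 3.45 in spleen, 2.94, 5.65 and 4.12 in lymph node, 5.36, 7.47 and 8.48 in lung, 12.6, 10.5 and 9.59 in bone marrow, and 5.35, 9.63 and 22.3 in liver. The high liver mean thus came from 1 library. Ccne2 rose 1.99 ± 0.36 log2 units from blood to liver (adjusted p = 0.000307), and no difference between liver and bone marrow was called (adjusted p = 0.981). Exons of Ccne2 overlap those of Ints8 on the other strand over 17.4% of its exon bases, and whether counting used strand is not given in the sources used here, so its level is uncertain. E2f1, an activator of replication genes, was at 10.3, 11.1 and 10.6 TPM in bone marrow and at 1.92 to 5.12 TPM in all other libraries. It rose 1.504 ± 0.27 log2 units from blood to bone marrow (adjusted p = 0.000410), while spleen, blood, liver, lung and lymph node followed each other without a called difference between neighbours.

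All 10 licensing and helicase genes had their lowest mean in blood. Mcm5, a subunit of the ring-shaped MCM helicase, was at 17.4, 19.96 and 17.7 TPM in blood, 28.5, 25.1 and 28.5 in lung, 36.3, 36.7 and 26.7 in liver, 43.6, 49.1 and 45.8 in spleen, 59.98, 65.1 and 62.1 in lymph node and 93.9, 102.5 and 92.6 in bone marrow. The organs overlapped only between lung and liver. Mcm5 rose by 2.33 ± 0.11 log2 units from blood to bone marrow (adjusted p = 4.35e-10) and by 1.71 ± 0.11 from blood to lymph node (adjusted p = 5.46e-09), and was 1.16 ± 0.11 lower in lung than in lymph node (log2 fold change -1.16, adjusted p = 6.03e-07).

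The subunits of the same hexamer did not keep 1 order. Mcm4 was at 26.2, 22.6 and 23.6 TPM in blood and 58.5, 61.4 and 64.1 in lung, beside 59.2, 57.8 and 58.9 in bone marrow. Bone marrow and lung therefore overlapped, with a log2 difference of -0.06 ± 0.09 (adjusted p = 0.617). Cdt1, which loads the helicase onto origins, was at 56.2, 57.4 and 60.6 TPM in lung, 54.2, 49.3 and 56.2 in bone marrow and 27.2, 29.1 and 30.9 in liver. It was 0.97 ± 0.18 log2 units higher in lung than in liver (adjusted p = 0.000454; 0.0724 with libraries weighted by their spread). Mcm2, Mcm3, Mcm5, Mcm6 and Mcm7 stood in lung at 28.4% (Mcm5) to 67.1% (Mcm6) of the bone marrow mean.

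Cdc6, which recruits the helicase loader, was at 0.98, 0.89 and 1.30 TPM in blood and 15.7, 18.5 and 14.0 in bone marrow, with 1.25 to 7.97 TPM in the libraries of the other organs. The rise from blood to bone marrow was 3.05 ± 0.30 log2 units (adjusted p = 9.15e-07), the largest of the 10 licensing genes. Gins2, a helicase subunit, shares 67.3% of its exon bases with Gse1 on the other strand, so its separate level is uncertain.

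Among synthesis genes, Pcna, the sliding clamp of DNA polymerases and also part of DNA repair, had the highest levels. It was at 138.3, 132.4 and 135.6 TPM in blood, 179.2, 169.4 and 164.4 in spleen, 184.9, 187.0 and 187.4 in lymph node, 209.8, 231.3 and 219.8 in liver, 278.9, 261.7 and 268.8 in bone marrow and 360.8, 315.7 and 276.6 in lung. Lung and bone marrow overlapped by 1 library each. Pcna was 1.22 ± 0.07 log2 units higher in lung than in blood (adjusted p = 2.00e-09) and lower in bone marrow than in lung by a log2 fold change of -0.23 ± 0.07 (adjusted p = 0.0219). The second difference missed the threshold without lung 1 (adjusted p = 0.114), bone marrow 2 (0.0762) or bone marrow 3 (0.0558), and under scaling to T cell genes (0.558).

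Rrm2, the regulated subunit of ribonucleotide reductase, had a steeper course. It was at 5.94, 3.86 and 4.33 TPM in blood, 11.9, 15.1 and 16.6 in lung, 17.1, 15.9 and 16.1 in spleen, 25.1, 27.2 and 26.7 in lymph node, 51.8, 35.3 and 35.7 in liver and 84.8, 85.1 and 91.4 in bone marrow. Only lung and spleen overlapped. Rrm2 rose 3.96 ± 0.16 log2 units from blood to bone marrow (adjusted p = 6.79e-11) and 2.87 ± 0.16 from blood to liver (adjusted p = 8.75e-10). The other subunit, Rrm1, reached 6.18 times the blood mean in bone marrow, against 18.5 times for Rrm2. Tyms and Tk1, enzymes that supply thymidine nucleotides, reached 8.07 and 6.72 times, and Chek1, the kinase of the replication checkpoint, 7.21 times.

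G2/M genes had the widest range. Mki67, which coats mitotic chromosomes and is used as a mark of dividing cells, was at 6.41, 6.41 and 6.93 TPM in blood, 13.8, 13.3 and 13.2 in spleen, 11.1, 11.7 and 17.5 in lung, 25.5, 23.4 and 23.4 in lymph node, 33.7, 31.5 and 32.8 in liver and 84.0, 81.2 and 77.7 in bone marrow. Only spleen and lung overlapped. It rose 3.43 ± 0.13 log2 units from blood to bone marrow (adjusted p = 3.71e-11) and 2.15 ± 0.13 from blood to liver (adjusted p = 2.60e-09), and was lower in lung than in liver by a log2 fold change of -1.25 ± 0.13 (adjusted p = 3.06e-06). From blood to spleen the rise was 0.93 ± 0.13 (adjusted p = 4.31e-05), but -0.0071 (adjusted p = 0.989) once libraries were scaled to their T cell genes.

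Cdk1, the kinase that drives entry into mitosis, was at 2.96, 3.12 and 1.2 TPM in blood, 5.82, 19.4 and 10.02 in spleen, 12.1, 12.2 and 11.1 in lymph node, 21.5, 21.3 and 40.3 in liver, 29.5, 7.70 and 3.69 in lung and 70.1, 71.1 and 64.4 in bone marrow. Its lung libraries ranged from near the blood level to above 2 of the 3 liver libraries. Cdk1 rose 4.40 ± 0.53 log2 units from blood to bone marrow (adjusted p = 8.82e-06), the largest rise of the 42 genes. Its partner Ccnb1 was 25.7 times as high in bone marrow as in blood, Ccna2 22.7 times and Ccnb2 13.8 times. Top2a, which untangles sister chromatids, rose 3.95 ± 0.23 (adjusted p = 3.41e-09), and Ube2c, the ubiquitin carrier of the anaphase-promoting complex, 4.32 ± 0.28 (adjusted p = 9.19e-09).

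**Figure D2:**
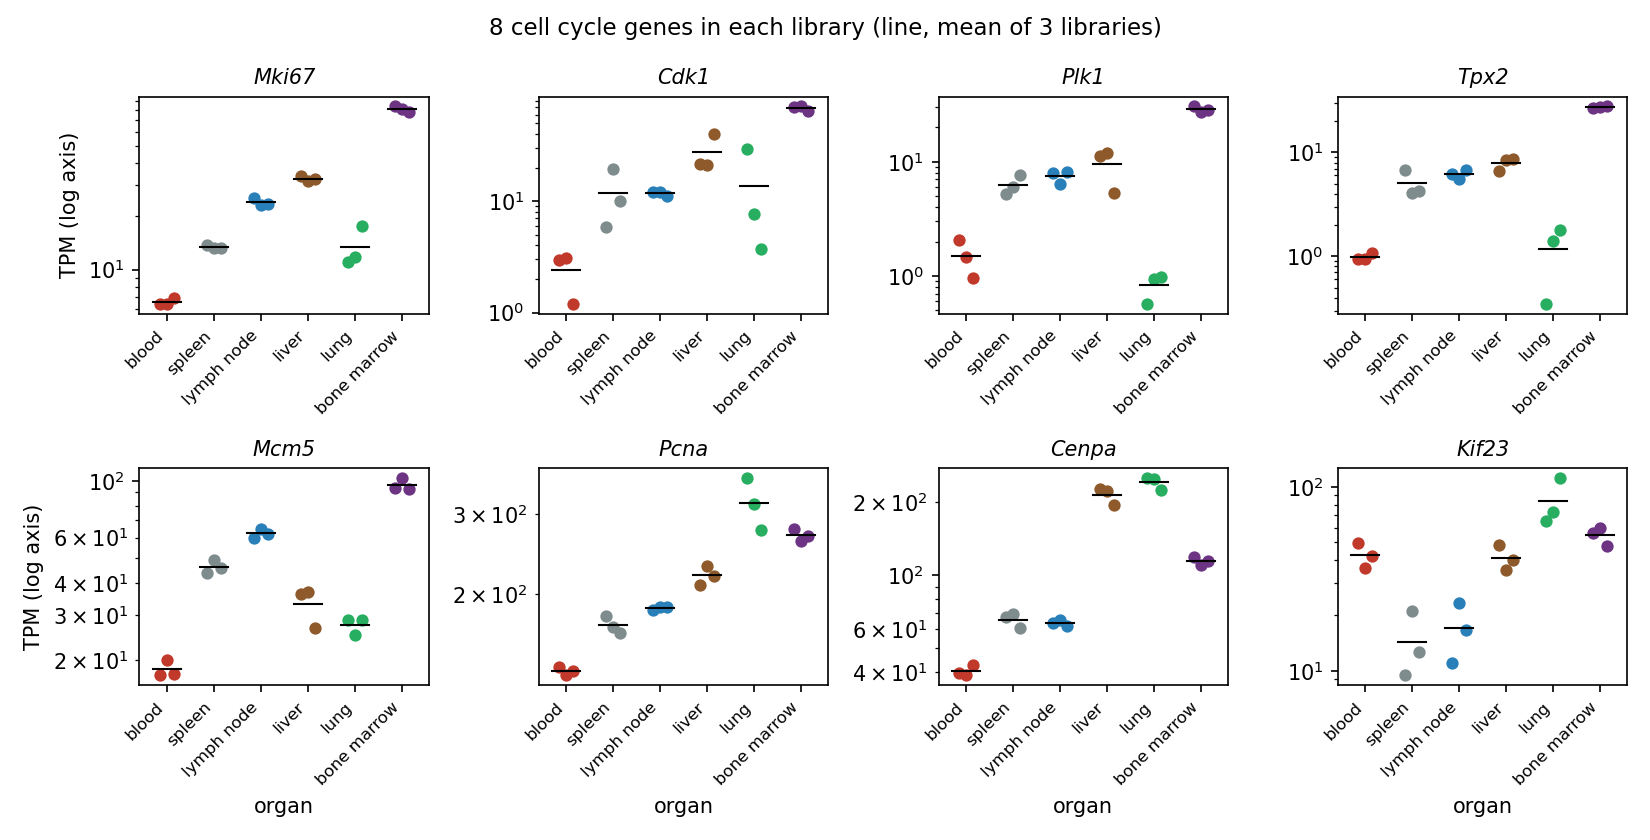
TPM of 8 genes in each of the 18 libraries, on log axes that differ between panels; points are libraries and lines are means of 3. Mki67 and Mcm5 reach their highest values in bone marrow, Plk1 and Tpx2 lie below 2 TPM in all 3 lung libraries, and Cenpa, Kif23 and Pcna have their highest means in lung.

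Plk1, a kinase of mitotic entry and spindle assembly, departed from Mki67 in lung. It was at 2.07, 1.46 and 0.95 TPM in blood, 0.57, 0.93 and 0.98 in lung, 5.22, 6.06 and 7.65 in spleen, 7.90, 6.41 and 8.17 in lymph node, 11.2, 11.9 and 5.33 in liver and 30.6, 27.6 and 28.2 in bone marrow. The lung libraries overlapped the lowest blood library and lay below every library of spleen, lymph node, liver and bone marrow. Plk1 was lower in lung than in liver by a log2 fold change of -2.46 ± 0.26 (adjusted p = 2.48e-06) and than in lymph node by -2.22 ± 0.26 (adjusted p = 4.07e-06). No difference between lung and blood was called (-0.43 ± 0.26, adjusted p = 0.197). With scaling to T cell genes the lung level was below blood (-0.90, adjusted p = 0.00803).

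Tpx2, a spindle assembly factor that activates Aurora A, was likewise low in both lung and blood. It was at 0.35, 1.41 and 1.78 TPM in lung, 0.95, 0.95 and 1.08 in blood and 6.57, 8.37 and 8.66 in liver, and was lower in lung than in liver by a log2 fold change of -2.08 ± 0.25 (adjusted p = 8.61e-06). In bone marrow it reached 26.5, 27.2 and 27.8 TPM, 3.82 ± 0.25 log2 units above blood (adjusted p = 1.04e-08). Aurka itself, the kinase that Tpx2 activates, was at 1.80, 1.54 and 0.89 TPM in lung, below all 15 other libraries. Those libraries ran from 1.92 TPM, in blood 1, to 25.2 TPM. No difference between lung and blood was called for Aurka. For genes near 1 TPM, fold changes on the log2(TPM + 1) scale are understated.

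Cenpa and Kif23 went against the other G2/M genes. Cenpa, the histone H3 variant that marks centromeres, was at 39.7, 38.7 and 42.8 TPM in blood, 67.2, 69.4 and 60.7 in spleen, 63.4, 65.6 and 61.8 in lymph node, 119.3, 110.1 and 114.6 in bone marrow, 227.7, 224.1 and 195.3 in liver and 252.5, 250.9 and 224.4 in lung. Liver and lung overlapped each other and were above all other organs, bone marrow included. Cenpa was 2.56 ± 0.08 log2 units higher in lung than in blood (adjusted p = 5.15e-13) and 2.39 ± 0.08 higher in liver than in blood (adjusted p = 1.28e-12). In bone marrow it was lower than in lung by a log2 fold change of -1.07 ± 0.08 (adjusted p = 1.85e-08) and than in liver by -0.90 ± 0.08 (adjusted p = 2.22e-07).

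Kif23, a kinesin of the central spindle that is needed for cytokinesis, was at 49.3, 36.2 and 41.9 TPM in blood, 9.45, 21.0 and 12.7 in spleen, 10.98, 23.5 and 16.7 in lymph node, 48.4, 35.1 and 40.1 in liver, 55.9, 59.8 and 47.4 in bone marrow and 65.5, 73.0 and 111.7 in lung. It was the 1 gene whose 3 lung libraries were above the other 15, and it was lower in spleen than in blood (log2 fold change -1.56 ± 0.28, adjusted p = 0.000380) and in lymph node than in blood (-1.32 ± 0.28, adjusted p = 0.00151). Lung was 2.49 ± 0.28 log2 units above spleen (adjusted p = 3.33e-06) and 0.93 ± 0.28 above blood (adjusted p = 0.0142). The difference from blood missed the threshold without lung 3 (adjusted p = 0.0737) or blood 2 (0.0581), with library weights (0.1199) and under scaling to T cell genes (0.513). No difference between bone marrow and blood was called (0.35 ± 0.28, adjusted p = 0.396). Over the 18 libraries, log2(TPM + 1) of Kif23 had a Pearson r of 0.13 with Mki67 and that of Cenpa 0.39, the lowest of the 42 genes, while that of Rrm2 was 0.98, the highest; libraries of an organ are not independent points.

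Some high values came from single libraries. Cenpf, a kinetochore protein, was at 9.95 TPM in liver 3 but 1.90 and 2.46 in the other liver libraries, and at 11.9 TPM in lung 2 but 0.58 and 2.09 in the other lung libraries. It had the largest F test adjusted p of the 42 genes (0.0164). Aurkb was at 7.18, 4.13 and 23.3 TPM in liver and 0.56, 9.46 and 2.41 in lung, with lung 2 above every blood library. Aurka was at 12.6, 3.33 and 4.03 TPM in liver, Cenpe at 2.34, 5.08 and 12.3 in liver, and Bub1b at 14.0, 4.06 and 4.38 in spleen. Kif20a shares 29.3% of its exon bases with Cdc23 on the other strand, Ube2c 22.8% with Tnnc2 and Ccna2 12.5% with Exosc9. Over all libraries Cdc23 averaged 35.8 TPM, Exosc9 31.5 and Tnnc2 only 0.17. How far the overlaps move the levels was not tested. Stmn1, outside the phases, was at 23.6, 28.9 and 28.0 TPM in blood, 63.3 to 97.8 TPM in spleen, lymph node, liver and lung, and 242.7, 256.1 and 246.8 in bone marrow. Its rise from blood to bone marrow was 3.17 ± 0.14 log2 units (adjusted p = 1.01e-10).

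The comparisons with blood share the 3 blood libraries. From blood to bone marrow, 41 of the 42 genes rose, all but Kif23, where 18.8% of all genes tested were higher in bone marrow. Liver gave 36 genes higher than in blood, where 16.1% of all genes were higher, with 19 of the 22 G2/M genes and 15 of the 16 replication genes. Lymph node gave 34 higher and 1 lower, Kif23, where 21% of all genes were higher and 16.4% lower. Spleen gave 32 higher and 1 lower, again Kif23, where 15.3% were higher and 20.1% lower. Lung gave 28 higher and 1 lower, Ccne1, where 17.3% were higher and 26.4% lower; these were 11 of the 22 G2/M genes and 15 of the 16 replication genes. The median log2 fold change over the 42 genes was 1.13 in spleen, 1.48 in lymph node, 1.47 in liver, 0.97 in lung and 2.86 in bone marrow, beside medians of 0.00, 0.15, -0.07, -0.12 and 0.11 over all genes.

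How many genes rose from blood depended on the scaling, and blood had the lowest summed level of T cell genes. When each library was scaled to the geometric mean of the 20 T cell genes, bone marrow again gave 41 higher calls, but liver gave 24 higher and 6 lower, lymph node 16 and 5, lung 16 and 4, and spleen 9 and 7. Shares of all genes called are not given for this or the other alternatives below. Counts under this scaling, here and below, and under those alternatives lack that background. After that scaling the median log2 fold change of all genes was -0.84 in spleen, -0.82 in lymph node, -0.89 in liver, -0.73 in lung and -0.34 in bone marrow. The median over the 42 genes was then 0.30, 0.51, 0.70, 0.33 and 2.40 in the same order, above the median of all genes in each comparison.

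**Figure D3:**
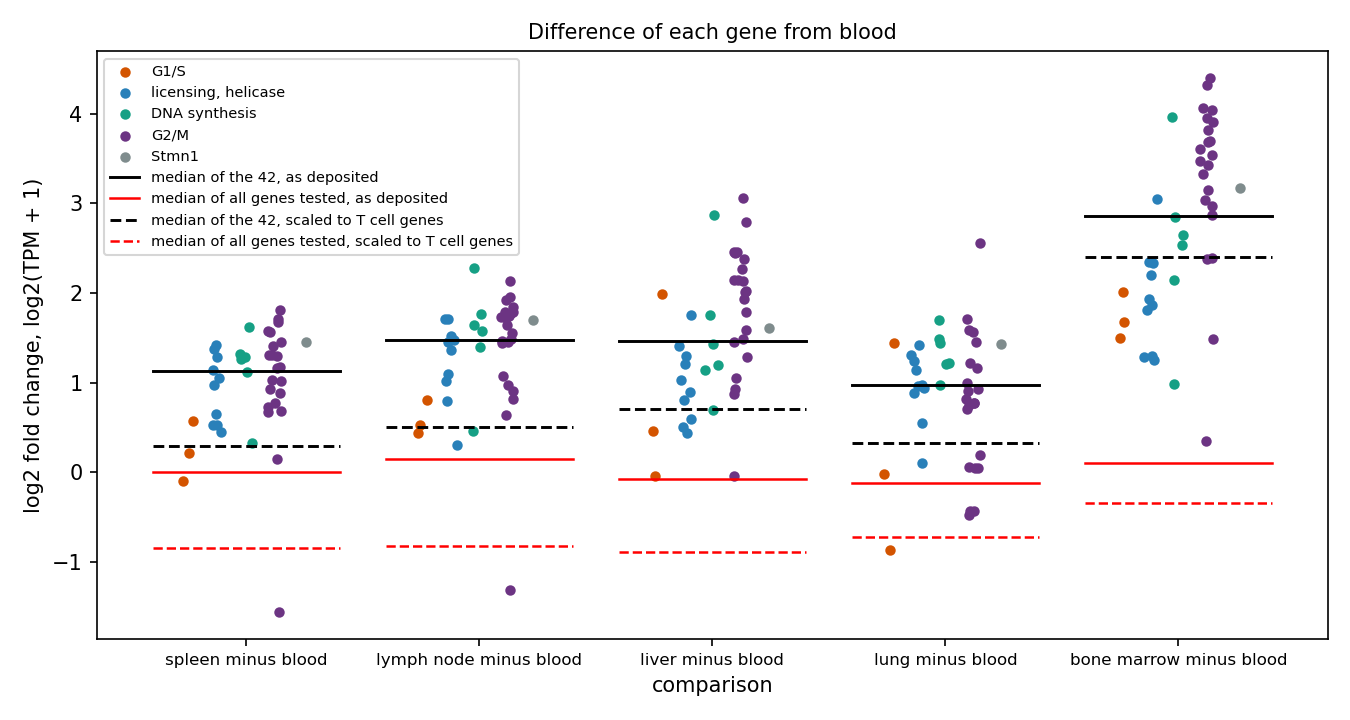
Log2 fold change of each of the 42 genes between an organ and blood, on log2(TPM + 1), coloured by role; black lines are medians of the 42 genes and red lines medians of all genes tested, solid as deposited and dashed after scaling to 20 T cell genes. The G2/M points reach 4.40 in bone marrow (Cdk1), and the dashed lines lie below the solid ones in all 5 comparisons.

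Among the other organs, bone marrow exceeded each one. It was higher for 41 of the 42 genes against spleen, where 18.2% of all genes were higher in bone marrow, and for 37 against lymph node (13.7%). It was higher for 35 genes against liver (25.1%) and 34 against lung (30.3%). The genes lower in bone marrow were Cenpa against liver, where 9.36% of all genes were lower, and Cenpa and Pcna against lung (13.2%). Markers of the precursors of other lineages were also highest in bone marrow. The 8 granulocyte precursor genes, among them Mpo at 535.0 TPM, summed to 1729 ± 3.13 TPM (SD, n = 3) in bone marrow with all 8 at 1 TPM or more, and to 1.53 to 24.6 TPM in the other organs. B cell precursor genes summed to 139.6 TPM in bone marrow and 3.52 to 16.99 TPM elsewhere, and stem and progenitor genes to 33.2 TPM against 5.66 to 20.7 TPM. The part of these cells in the bone marrow levels was not tested.

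Spleen and lymph node differed in 7 of the 42 genes, all higher in lymph node, where 9.87% of all genes were higher. Of the 7, 5 were replication genes. Leaving out 1 library at a time gave 5 to 8. The count rose with library weights and in the fit on that pair alone, and fell with quantile normalization and T cell scaling. Liver was higher than spleen for 15 genes and lower for 1, where 14% and 17.3% of all genes were (7 higher with library weights and in the fit on that pair alone). It was higher than lymph node for 8 and lower for 4, where 9.45% and 21.6% were. The liver and lymph node counts fell to between 4 and 5 higher without any 1 lymph node library and to 2 lower without lymph node 2 or 3, and the split was 11 higher and 1 lower with T cell scaling. Of the 15 genes higher in liver than in spleen, 11 were G2/M genes and 3 were replication genes.

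Most G2/M genes were lower in lung than in liver. Of the 42 genes, 20 were lower in lung than in liver, where 17.6% of all genes were lower, and 4 were higher (17.3%). The 20 included 15 of the 22 G2/M genes and 4 of the 16 replication genes, and the median log2 fold change was -1.18 over the G2/M genes and -0.11 over the replication genes. With T cell scaling the split was 15 lower and 6 higher, with 13 G2/M genes lower. Library weights gave 12 lower and 2 higher, and a fit on the 6 libraries of the pair 7 lower. Shares of all genes called under these alternatives are not given. Plk1 was 11.5 times as high in liver as in lung, Tpx2 6.67 times and Ccnb1 3.91 times. Against lymph node, 19 of the 42 genes were lower in lung and 5 higher, where 27.4% and 14.9% of all genes were; the 19 became 12 without lymph node 2, and T cell scaling gave 6 lower and 7 higher. Against spleen, 8 were lower in lung and 6 higher, where 22.8% and 18% of all genes were, with 5 lower without spleen 2 and a split of 4 lower and 10 higher with T cell scaling.

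The 2 phases did not scale together between organs. Summed over the 22 genes, G2/M RNA was 133.1 ± 11.6 TPM in blood, 231.3 ± 17.7 in spleen, 278.5 ± 8.57 in lymph node, 444.0 ± 14.1 in lung, 546.2 ± 18.5 in liver and 1020.3 ± 25.7 in bone marrow (SD, n = 3 each). Summed over the 16 replication genes, it was 347.5 ± 4.21 TPM in blood, 598.2 ± 27.03 in spleen, 689.8 ± 41.1 in liver, 729.5 ± 6.80 in lymph node, 757.3 ± 34.5 in lung and 1183.5 ± 7.76 in bone marrow. The ratio of the G2/M to the replication sum was 0.383 ± 0.029 in blood, 0.386 ± 0.013 in spleen and 0.382 ± 0.009 in lymph node, which overlapped. It was 0.587 ± 0.035 in lung, 0.793 ± 0.025 in liver and 0.862 ± 0.024 in bone marrow, and the libraries of these 3 organs overlapped neither each other nor the first 3. Such a ratio is a score over chosen genes and is given without a test.

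The place of lung in that order rested on Cenpa and Kif23. Of the 444.0 TPM of the lung G2/M sum, Cenpa held 242.6 and Kif23 83.4 TPM, and without both the sum was 118.0 ± 13.2 TPM in lung, 151.2 ± 10.3 in spleen, 197.8 ± 6.16 in lymph node, 289.4 ± 15.8 in liver, 851.3 ± 19.3 in bone marrow and 50.2 ± 4.32 in blood. Without Cenpa, Kif23 and Pcna, an alternative chosen after the values were seen, the ratio was 0.237 ± 0.019 in blood, 0.268 ± 0.020 in lung, 0.354 ± 0.018 in spleen, 0.364 ± 0.012 in lymph node, 0.620 ± 0.052 in liver and 0.932 ± 0.034 in bone marrow. Without the 3 genes lung thus lay below spleen and lymph node, and blood was lowest. The mean difference in log2(TPM + 1) between the 2 groups, which weights genes equally, put lung lowest, below blood (-1.99 ± 0.15, against -1.66 ± 0.03 in blood), with liver at -1.004 ± 0.20 and bone marrow at -0.55 ± 0.04.

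**Figure D4:**
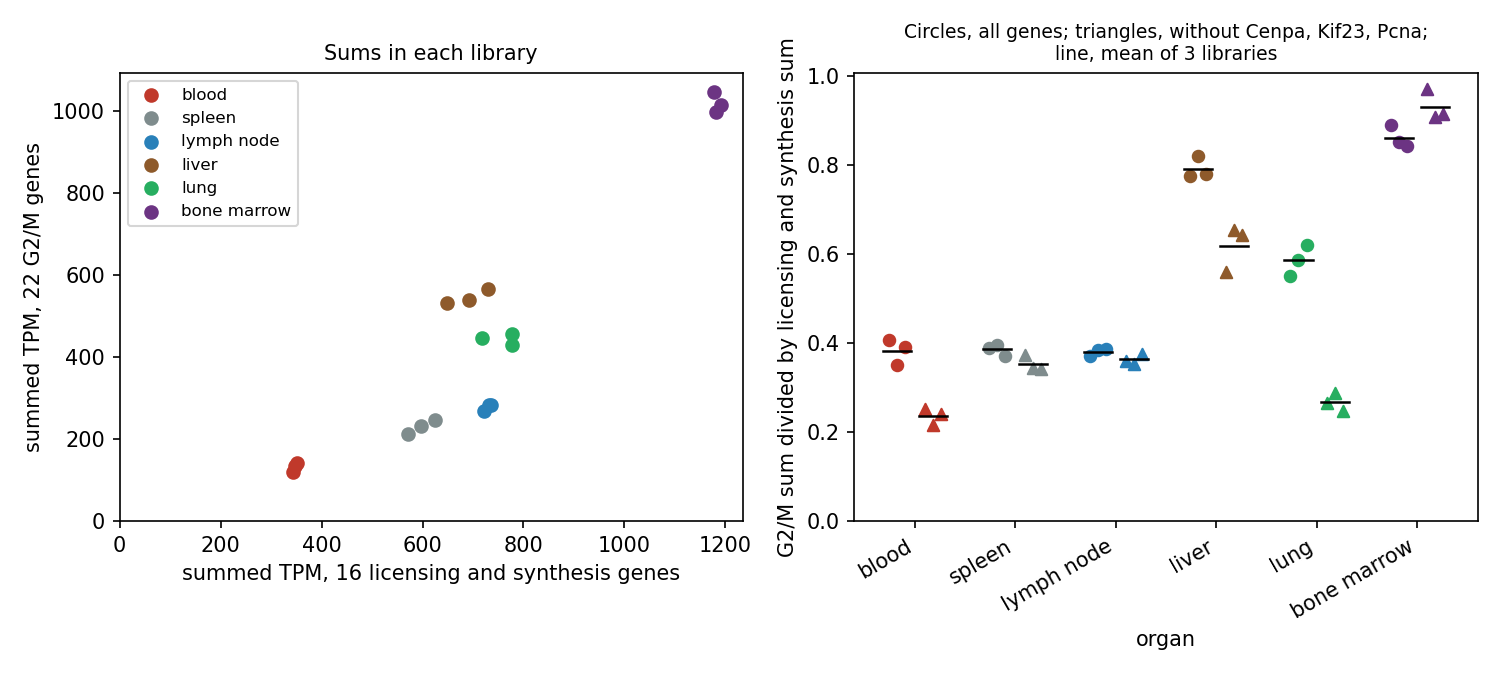
Left, summed TPM of the 22 G2/M genes against that of the 16 replication genes, 1 point per library; right, their ratio per library with all genes (circles) and without Cenpa, Kif23 and Pcna (triangles), with means of 3 as lines. The bone marrow points lie apart at the upper right, and the lung ratio drops from 0.587 to 0.268 without the 3 genes.

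Relative to bone marrow, replication genes were closer to full level than G2/M genes in every other organ. The median gene stood at 19.9% of its bone marrow mean for replication and 5.72% for G2/M in blood, and at 50.04% and 17.9% in spleen. The values were 61.8% and 23.8% in lymph node, 48.5% and 33.1% in liver, and 42.8% and 13.7% in lung. Single genes ranged widely around these medians in lung, from Plk1 at 2.87% to Cenpa at 211.6% of the bone marrow mean.

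The regulators upstream and beside these genes were read from 8 further lists with 99 genes, of which 85 differed among organs by the F test, where 68% of all genes did. Against blood, 34 were higher and 9 lower in spleen, where 15.3% and 20.1% of all genes were, and 51 and 10 in lymph node (21% and 16.4%). In lung 39 were higher and 14 lower (17.3% and 26.4%). In liver 54 were higher and 4 lower, where 16.1% of all genes were higher, and in bone marrow 69 and 3, where 18.8% were higher. The shares of all genes lower in liver or bone marrow than in blood are not given, here or below. With T cell scaling, which lowered the median of all genes as given above, these became 2 and 43 in spleen, 5 and 46 in lymph node, 16 and 35 in lung, 19 and 43 in liver and 54 and 15 in bone marrow. In the kinetochore and spindle list, 24 of 25 genes were higher in bone marrow than in blood (18.8% of all genes) and 21 in liver (16.1%), against 15 in lymph node (21%), 9 in lung (17.3%) and 8 in spleen (15.3%). Smc4, a condensin subunit, was the 1 gene lower in bone marrow and Ect2, a cytokinesis factor, the 1 lower in lung, both named after their values were seen.

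Of the G1 regulators, Ccnd3, the D cyclin of lymphocytes, was at 276.1 ± 20.6 TPM in blood (SD, n = 3), 268.6 ± 10.9 in bone marrow, 216.1 ± 23.5 in lymph node, 205.0 ± 3.16 in spleen, 127.8 ± 26.0 in liver and 61.2 ± 7.11 in lung. It was lower in lung than in blood by a log2 fold change of -2.16 ± 0.12 (adjusted p = 6.58e-10). Ccnd2, which responds to mitogens, was highest in lymph node (277.8 ± 17.03 TPM, against 97.5 ± 11.01 in blood), 1.51 ± 0.12 log2 units above blood (adjusted p = 4.22e-08; 0.30, adjusted p = 0.0519, with T cell scaling). Cdk2, the partner of the E cyclins, averaged 15.7 ± 0.62 TPM in lung, 28.6 ± 1.23 in blood and 54.2 ± 3.45 in bone marrow.

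Of the CDK inhibitors of the Cip/Kip family, Cdkn1a and Cdkn1c were highest in lung and Cdkn1b was not. Cdkn1a (p21), which arrests cells in response to p53 and other signals, was at 103.8 ± 16.1 TPM in lung, 39.3 ± 1.73 in liver, 13.3 ± 1.37 in blood, 10.8 ± 0.79 in bone marrow, 7.72 ± 2.24 in lymph node and 5.70 ± 1.99 in spleen. Cdkn1c (p57) was at 53.7 ± 7.44 TPM in lung, 10.6 ± 2.30 in bone marrow, 9.66 ± 5.56 in liver and 1.24 to 2.74 TPM on average in spleen, lymph node and blood. From blood to lung, Cdkn1a rose 2.87 ± 0.20 (adjusted p = 9.22e-09) and Cdkn1c 3.88 ± 0.36 log2 units (adjusted p = 2.44e-07). Cdkn1b (p27), high in resting T cells, averaged 199.7 ± 11.3 TPM in lung and 274.4 ± 40.2 in liver and was lowest in spleen (106.1 ± 2.68 TPM, against 212.2 ± 3.11 in blood), a log2 fold change of -0.99 ± 0.08 (adjusted p = 6.74e-08). Of the 7 listed inhibitors, 4 were higher in liver than in blood, where 16.1% of all genes were, and 2 in lung, where 17.3% were. In bone marrow 2 were higher (18.8% of all genes). In spleen and lymph node 1 was higher and 2, Cdkn1a and Cdkn1b, were lower. Of all genes, 15.3% were higher and 20.1% lower in spleen, and 21% and 16.4% in lymph node. With T cell scaling 1 inhibitor was higher and 2 lower in liver, 2 and 2 each in lung and bone marrow, and 0 and 4 each in spleen and lymph node.

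Among E2F and MuvB genes, E2f2, an activator E2F, was at 5.56 ± 0.81 TPM in lung, 36.6 ± 1.51 in blood and 49.7 ± 2.38 in bone marrow, with a log2 fold change of -2.53 ± 0.17 from blood to lung (adjusted p = 7.77e-09). Tfdp1, the dimerisation partner of E2Fs, averaged 86.4 ± 3.48 TPM in bone marrow and 25.0 to 47.8 TPM elsewhere, and E2f4, a mostly repressive E2F, 48.2 to 87.0 TPM over all 6 organs. Foxm1, the transcription factor of the G2/M wave, was at 2.47 ± 1.23 TPM in blood, 4.38 ± 0.47 in spleen, 5.84 ± 2.51 in lung, 8.18 ± 1.51 in lymph node, 8.81 ± 3.16 in liver and 23.3 ± 3.53 in bone marrow. It rose 2.86 ± 0.31 log2 units from blood to bone marrow (adjusted p = 2.63e-06). Lin54, the CHR-binding subunit of MuvB, was highest in lung at 23.0 ± 1.49 TPM, against 8.94 to 14.5 TPM elsewhere, and Lin9 averaged 5.42 TPM in lung and 12.6 in bone marrow.

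Other genes of replication and mitosis followed bone marrow, with exceptions. Dut, Dtl and Lig1, which act in nucleotide clearance, licensing control and DNA ligation, were highest in bone marrow at 87.9, 11.8 and 57.9 TPM and lowest in blood at 28.4, 0.85 and 9.53 TPM. The mitotic genes Ncaph, Kif2c and Cdca8 were at 25.8, 13.0 and 47.3 TPM in bone marrow and at 1.49, 0.87 and 4.11 TPM in blood. Cdc25b, a phosphatase that activates CDKs, was at 143.5 ± 9.88 TPM in liver and 136.5 ± 4.07 in bone marrow but 59.6 ± 0.80 in blood, a rise of 1.25 ± 0.10 log2 units from blood to liver (adjusted p = 3.76e-08). Its relative Cdc25a was highest in bone marrow (20.5 ± 0.93 TPM, against 4.53 to 12.5 elsewhere). Pttg1, securin, stayed between 57.2 and 108.7 TPM and was lowest in lymph node.

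Of the 8 genes of resting lymphocytes, 3 were higher and 2 lower in bone marrow than in blood, where 18.8% of all genes were higher; with T cell scaling 0 were higher and 6 lower. Klf2, a factor of quiescence and of exit into the circulation, was at 776.0 ± 12.9 TPM in bone marrow, 643.1 ± 70.1 in liver, 626.9 ± 38.5 in blood, 342.7 ± 14.5 in lung, 203.5 ± 12.3 in spleen and 185.4 ± 6.09 in lymph node. Btg2, an antiproliferative gene, had the same order of groups, with 424.1 ± 7.96 TPM in bone marrow, 409.8 ± 40.7 in liver, 271.4 ± 7.44 in blood and 117.9 ± 2.65 in lymph node. From blood to spleen, Klf2 had a log2 fold change of -1.62 ± 0.07 (adjusted p = 4.53e-11) and Btg2 of -1.13 ± 0.07 (adjusted p = 1.54e-09). Slfn2, which keeps T cells at rest, was highest in blood (584.6 ± 14.2 TPM) and lowest in lung (216.7 ± 3.52). Bone marrow thus held the highest levels of Mki67 and of Klf2 in the same libraries, which are averages over all sorted cells.

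**Figure D5:**
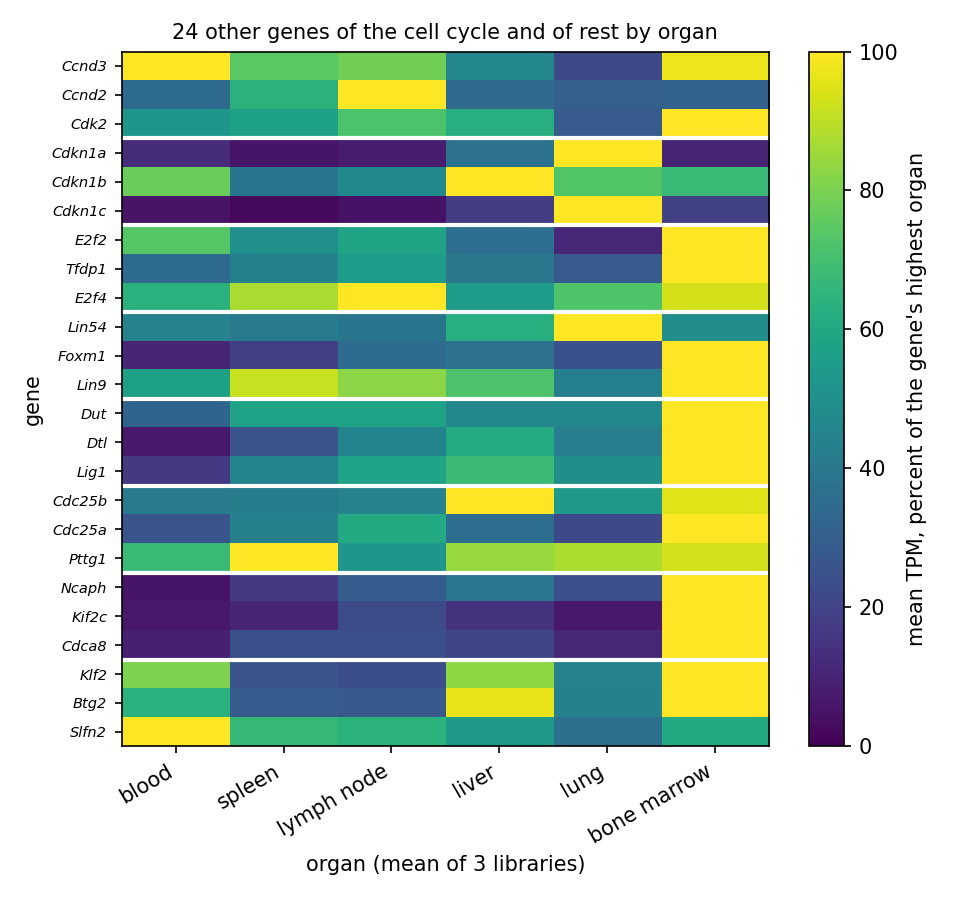
Mean level of 24 genes from the 8 further lists in each organ (3 libraries), as a percent of the gene's highest organ; white lines separate the lists, from G1 cyclins at the top to genes of resting lymphocytes at the bottom. Cdkn1a, Cdkn1c and Lin54 peak in lung, and Klf2 and Btg2 peak in bone marrow with liver close behind.

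Outside the 42 genes, 10 were named for the pattern closest to Mki67 across the 18 libraries. The measure was Pearson r of log2(TPM + 1) among genes of at least 5 TPM in their highest organ. The 10 were Il9r (r = 0.97), Chdh (0.96), Hmmr (0.96), Ncaph (0.95), Prr11 (0.94), Spc24 (0.94), Kif18b (0.93), Muc3a (0.93), Dusp2 (0.93) and Fignl1 (0.93). Ncaph and Spc24 also belong to the kinetochore and spindle list above. Over the 15 libraries without bone marrow, r ranged from 0.83 (Kif18b and Fignl1) to 0.97 (Il9r). Il9r, the receptor subunit for interleukin 9, averaged 8.55 ± 0.94 TPM in blood, 15.3 ± 5.84 in lung, 16.3 ± 1.48 in spleen, 22.9 ± 1.90 in lymph node, 40.3 ± 6.28 in liver and 56.2 ± 2.16 in bone marrow. Libraries of 1 organ share their source, so these values describe the order of 6 organs.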

How the data were processed

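Poly(A) RNA of 18 libraries, 3 for each of 6 organs, was analysed. Per the labels' protocols, RNA was extracted with RNAiso PLUS and made into libraries with a directional kit. The authors deposited 1 table of TPM values per library for 55487 Ensembl genes; STAR, RSEM and mm10 are named, without versions, in the submitters' processing notes. Annotation version and use of strand in counting are not given in the sources used here. TPM keeps no library depth, and values are given to 2 decimals, so genes near 0 are coarse. Gene names and exon overlaps came from GENCODE M21, promoters from RefSeq (GRCm38.p6).

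TPM were compared on log2(TPM + 1) with limma 3.58.1 in R 4.3.3 (empirical Bayes with trend and robust settings), in 1 fit over all 18 libraries. A gene entered the test when its mean reached 1 TPM in any organ (16694 genes). Moderated F tests over the 6 organs and the 15 pairs were adjusted by Benjamini-Hochberg over all genes and called at an adjusted p under 0.05. Standard errors come from this fit, which gives each gene 1 spread shared by all 6 organs, though replicates varied more in liver and lung. Fold changes of low genes are understated. The script was tested on simulated data. Sums and ratios over genes carry no test.

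The 42 genes and all lists were chosen with earlier results of these data known. All 42 are named; in each of 8 further lists, the 3 genes with the smallest F test adjusted p and at least 5 TPM in the highest organ; and the 10 genes most like Mki67, leaving out numbered predicted genes. A few further values, such as those of single libraries, were picked out after they were seen. Alternatives were other pseudocounts (0.1 and 5), filters, scalings, library weights, a replicate block, pair-only fits and leaving out each library. Replicates were not flagged as outliers, since groups of 3 are too small for such a test.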

Additional observations from a re-analysis of the deposited data

How the results depend on the processing

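All 42 genes kept their F test call under every alternative run. Shares of all genes called under the alternatives are not given, so the counts in this section lack that background. Counts of genes against blood moved most with scaling to 20 T cell genes: higher and lower calls became 9 and 7 in spleen (from 32 and 1), 16 and 5 in lymph node (34 and 1), 24 and 6 in liver (36 higher), and 16 and 4 in lung (28 and 1). For the 99 further genes, that scaling gave 2 higher and 43 lower in spleen (from 34 and 9), 5 and 46 in lymph node (51 and 10), 19 and 43 in liver (54 and 4), 16 and 35 in lung (39 and 14), and 15 lower in bone marrow (3). Mki67 from blood to spleen went from 0.93 to -0.0071 (log2 fold change, adjusted p = 0.989), with no difference called. The median of all genes was then -0.84. Between other organs it gave 2 genes higher in lymph node than in spleen (7), 10 higher and 4 lower in lung than in spleen (6 and 8), 1 lower in liver than in lymph node (4), 6 lower in lung than in lymph node (19) and 1 lower in bone marrow than in lung (2). The cause was not tested.

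Library weights gave 13 higher in lymph node than in spleen, 7 higher in liver than in spleen (15), 4 higher and 2 lower in liver than in lymph node (8 and 4), and 2 higher and 12 lower in lung than in liver (4 and 20). Fits on the 6 libraries of a pair, with fewer samples, gave 0 lower in lung than in blood (1), 11 higher in lymph node than in spleen, 7 higher and 0 lower in liver than in spleen, 4 lower in lung than in spleen, 7 lower in lung than in liver, 1 lower in bone marrow than in lung, and 33 of the further genes higher in liver than in blood. Quantile normalization gave 0 lower in lung than in blood, 3 higher in lymph node than in spleen, 2 lower in liver than in lymph node and 12 lower in lung than in lymph node. No filter gave 0 lower in lung than in blood, the loss of Ccne1 in each case. Of the further genes, 3 were lower in bone marrow than in blood, 5 with weights, quantile normalization or abundant RNA classes removed, and 6 in the pair fit.

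On the log2 scale, the ratio of the G2/M to the replication sum was -1.39 in blood, -1.37 in spleen, -1.39 in lymph node, -0.34 in liver, -0.77 in lung and -0.21 in bone marrow. As a difference of mean log2(TPM + 1) it was -1.66, -1.65, -1.62, -1.004, -1.99 and -0.55. Without Cenpa, Kif23 and Pcna, chosen after the data were seen, it was -2.08, -1.499, -1.46, -0.69, -1.90 and -0.10. Without the most abundant gene of each group (Cenpa and Pcna) it was -1.20 in blood, -1.369 in spleen, -1.34 in lymph node, -0.50 in liver, -1.13 in lung and -0.013 in bone marrow. With genes of at least 10 TPM alone it was -1.501 in blood, -1.596 in spleen, -1.62 in lymph node, -0.47 in liver, -0.80 in lung and -0.44 in bone marrow, with lung again above spleen and lymph node.

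Leaving out 1 library at a time gave 0 to 1 gene lower in lung than in blood, 1 to 2 lower in liver than in spleen, 5 to 10 lower in lung than in spleen, 4 to 11 higher and 2 to 6 lower in liver than in lymph node, 12 to 22 lower in lung than in lymph node, and 1 to 2 lower in bone marrow than in lung. Over 45 pairs, same-numbered libraries of different organs had r from -0.03 to 0.03 (mean 0.006, against -0.003 for other numbers). Of 18 libraries, 9 correlated best with their own number. Whether the numbers pair the libraries is not given in the sources used here, and values of r this small cannot settle it. The fit with replicate number as a block gave 42 genes by the F test and, against blood, 32 higher in spleen, 34 in lymph node, 36 in liver, 28 in lung and 41 in bone marrow; between other organs it moved counts by at most 1 gene. Precision was lowest in liver and lung, by the median coefficient of variation of the 42 genes (24.9% and 29.4%).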
